A study of Homo sapiens with 6 samples.

Results

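SEM-only regions are stretches of the genome that were called open in every ATAC-seq peak list of the leukemia line SEM and in no list of the lines RS4;11 and RCH. ATAC-seq marks accessible DNA by the places where the Tn5 transposase inserts sequencing adapters. Peaks of all 12 lists on chromosomes 1 to 22 were joined where they shared at least 1 bp, which gave 126189 regions. Members were chosen by the presence of a called peak, which had to be in all 4 SEM lists and in none of the 8 others. The rule found 1221 of them, 0.968% of all regions and 3.32% of the 36732 regions open in the 4 SEM lists (exact 95% binomial interval 3.14 to 3.51, counting error only). Together they span 0.622 Mb. The same rule gave 2548 RS4;11-only regions (5.65% of those open in the 4 lists of that line) and 1146 RCH-only regions (4.21%). Regions open in all 12 lists numbered 20934, or 57.0% of those open in the 4 SEM lists.

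The study comprises 6 samples of 3 B-cell acute lymphoblastic leukemia lines: SEM with sh2 and with NT, RS4;11 with sh2 and with NT, and RCH with sh2 and with NT. The shRNA sh2 is directed against NSD2, and NT is a non-targeting control shRNA, so every sample carries an shRNA. The series title names the NSD2 mutation E1099K, and the labels used here do not say which lines carry it. SEM and RS4;11 are known for a fusion of KMT2A with AFF1, and the name RCH is read here as the line RCH-ACV that the growth protocol lists. Each group is 1 cultured line with 1 hairpin, and its 2 peak lists are called libraries here. No label states whether the libraries of a group are separate cultures, and their spread may therefore be technical only. Lists held 40506 (RCH sh2 library 2) to 81527 peaks (RS4;11 NT library 1). SEM sh2 had 62120 and 60148 peaks, and SEM NT 52301 and 53475.

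Each cell type keeps most of its promoters open in common with other cells, while a smaller set of distal elements, many of them enhancers held open by lineage transcription factors, differs between cell types and between leukemia lines. NSD2 places methyl groups on lysine 36 of histone H3, a mark of broad chromatin domains that counters the repressive methylation of lysine 27, and its activity is raised by recurrent mutations in lymphoid leukemia. Genes and DNA sequence were not assigned to the regions, since the gene and promoter tables used here are on another genome build than the hg19 peaks.

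SEM-only regions were weaker and narrower than the regions open in all 12 lists. Strength is the fold enrichment that the authors deposited with each peak, read here as the signal of a peak over the local background in that library. It is not normalized between libraries. The median fold of the members was 6.52 and 6.43 in the sh2 libraries and 5.42 and 5.56 in the NT libraries. Regions open in all 12 lists had medians of 9.60 and 9.54 in the sh2 libraries and 9.02 and 9.09 in the NT libraries, above the members in every SEM library. As a percentile among all peaks of a list, averaged over the 4 SEM lists, the median member stood at 44.4 and the median region open in all 12 lists at 76.3. Within single lists the median member stood at percentiles 51.9 and 49.2 in the sh2 libraries and 36.6 and 39.3 in the NT libraries, so members were near the middle of the sh2 lists and below the middle of the NT lists. RS4;11-only regions had median percentiles of 32.3 and 34.0 in their sh2 and 49.4 and 41.1 in their NT libraries, and RCH-only regions 42.3 and 41.1 in sh2 and 55.9 and 49.3 in NT, so line-only regions of all 3 lines covered a like range of strength. Of the members, 495 (40.5%) had a mean percentile above 50, 9 were above 90 and 57 were below 10. The members above the 90th percentile of a list numbered 70 and 72 in the sh2 libraries (5.73% and 5.90%), against 10 and 16 in the NT libraries (0.819% and 1.31%). Of the regions open in all 12 lists, 24.8% and 23.8% lay above it in sh2 and 23.1% and 23.7% in NT. The SEM sh2 lists are longer than the SEM NT lists, and the part of that in these percentiles was not tested. Presence of a peak in these lists chose the members, so their strength is a description.

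**Figure D1:**
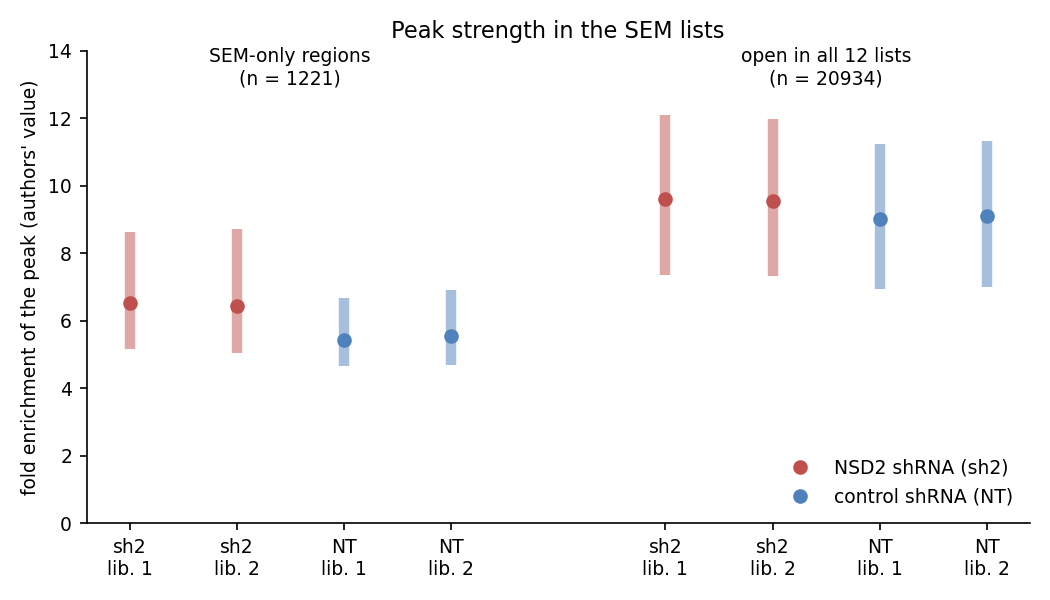
Fold enrichment of peaks (the authors' value, y axis) in each SEM library for SEM-only regions and for regions open in all 12 lists; points are medians over regions and bars run from the 25th to the 75th percentile of the regions. SEM-only medians lie between 5.42 and 6.52, all below the medians of 9.02 to 9.60 of the shared regions.

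The merged width of the members had a median of 462 bp (240 to 1949), against 409 bp for RS4;11-only regions, 496.5 bp for RCH-only regions and 836 bp for regions open in all 12 lists. Only 32 members (2.62%) were wider than 1 kb, while 32.8% of the regions open in all 12 lists were. Merged width joins peaks of SEM lists alone for members and of all 12 lists for the shared regions. These widths are therefore not like for like. Within single SEM lists the median covered width was 314 to 368 bp for members and 617 to 632 bp for regions open in all 12 lists. In 1141 members (93.4%) every SEM list had a single peak. The 2 sh2 libraries shared a median of 0.780 of the bases that either covered in a member, the 2 NT libraries shared 0.713, and pairs of an sh2 and an NT library shared 0.698 to 0.717. The shared part of a member was thus about as large across the shRNAs as between the NT libraries. The order of members by fold was less well kept across the shRNAs. Spearman's rho over the members was 0.807 between the sh2 libraries, 0.611 between the NT libraries and 0.415 to 0.493 between an sh2 and an NT library. In regions open in all 12 lists it was 0.888, 0.869 and 0.790 to 0.802 for the same kinds of pair. These are descriptions over regions of the same libraries.

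The strongest member lay at chr6:46097262-46098268. Its folds were 17.5 and 14.3 in the sh2 libraries and 16.6 and 17.3 in the NT libraries, with a mean percentile of 98.6 and the nearest RS4;11 or RCH peak at 39.1 kb. It was followed by chr7:89840748-89841521, with 14.1 and 14.5 in sh2 and 13.9 and 16.1 in NT. At both places the folds of sh2 and NT overlapped. The member at chr6:72129802-72130864 had 13.97 and 13.04 in sh2 and 12.2 and 11.9 in NT.

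The member at chr2:50201047-50201557 had 16.7 and 16.8 in sh2, against 9.70 and 12.5 in NT. That at chr1:78742745-78743487 had 16.1 and 13.4 in sh2, against 11.1 and 11.5 in NT, and that at chr2:200093704-200094475 had 15.1 and 16.7, against 11.4 and 9.81. The remaining 4 were chr3:8543126-8543708 (14.7 and 14.9 in sh2, 13.6 and 9.49 in NT), chr16:80574453-80575201 (14.4 and 11.1 in sh2, 11.96 and 10.9 in NT), chr4:128553668-128554257 (12.3 and 12.7 in sh2, 10.7 and 11.8 in NT) and chr14:34419762-34420542 (11.4 and 13.4 in sh2, 10.9 and 11.3 in NT). The nearest RS4;11 or RCH peak lay 0.530 kb from the member on chromosome 3, 1.21 kb from that on chromosome 4 and 7.83 to 39.1 kb from the other 8.

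The weakest members lay beside other open regions. The member at chr14:105956089-105956632 had folds of 2.80 and 2.18 in sh2 and 2.41 and 2.65 in NT, and an RS4;11 or RCH peak lay 226 bp away. At chr8:107283270-107283831 the folds were 2.20 and 2.21 in sh2 and 2.67 and 3.03 in NT, with such a peak at 275 bp. At chr6:41902328-41902754 they were 3.02 and 2.58 in sh2 and 2.49 and 2.63 in NT, with the nearest peak at 1121 bp. The 5 widest members were not among the 10 strongest, and their mean percentiles ran from 41.5 to 86.4. The region at chr4:62065716-62067664 spanned 1949 bp with folds of 5.91 and 5.71 in sh2 and 4.93 and 6.81 in NT. The next 4 were those at chr13:93879494-93881018 (1525 bp), chr7:122525649-122527139 (1491 bp), chr5:127873093-127874523 (1431 bp) and chr3:145877991-145879414 (1424 bp), where folds ranged from 6.30 to 11.98 over the 4 libraries.

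The members are the part of a larger set that had a peak in every SEM list. Peaks in SEM lists and in no list of the other lines were found at 14439 regions, of which 8590 had a peak in 1 SEM list, 3309 in 2, 1319 in 3 and 1221 in all 4. Both sh2 lists and no NT list had a peak at 2010 of them, and both NT lists and no sh2 list at 473. The same split was not counted over all SEM regions, so these counts are not shown to be particular to regions with peaks in SEM lists alone. The sh2 lists are also longer, with 62120 and 60148 peaks against 52301 and 53475 with NT, and the part of that was not tested. The 4 ways to combine 1 sh2 with 1 NT library gave 154 to 255 regions each. Just outside the rule, regions in 3 SEM lists were weaker, with a median mean percentile of 31.3 over the lists with a peak and a median width of 362 bp. Presence of calls chose these regions too, and their width joins 3 lists against 4 for members, so both values are descriptions. One of them, at chr6:140807224-140807729, had folds of 13.5 and 14.9 in the sh2 libraries and 8.16 in NT library 2, with no peak in NT library 1. The region at chr1:116549051-116549658 had 11.76 and 11.26 in sh2 and 7.04 in NT library 2, with no peak in NT library 1. The region at chr7:102152923-102153396 went the other way. Its folds were 8.87 in sh2 library 1 and 11.87 and 14.03 in NT, with no peak in sh2 library 2.

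On the other side of the rule, 707 regions had a peak in all 4 SEM lists and in exactly 1 other list. That list was RS4;11 NT library 1, the longest, for 245 of them, and 41 to 109 for each of the others. Their median mean percentile was 42.0 and their median width 469 bp, close to the members. The strongest, at chr7:87257214-87258149, had 13.5 and 15.0 in SEM sh2, 14.1 and 15.1 in SEM NT and 5.03 in RCH NT library 2. At chr12:98075476-98076027 the folds were 17.4 and 16.7 in SEM sh2, 9.14 and 11.2 in SEM NT and 4.77 in RCH NT library 2. The other 3 of the strongest 5 were chr3:177063407-177063791, chr4:66535924-66536680 and chr7:12726242-12727388, with single folds of 5.79 in RCH NT library 2, 2.70 in RS4;11 NT library 2 and 3.72 in RCH NT library 2. The absence of a call does not show closed chromatin, since a signal under the calling limit leaves no entry in a peak list.

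To set sh2 against NT, folds were ranked in each SEM library among the same 36732 regions open in all 4 SEM lists (0 lowest, 100 highest). The SEM sh2 lists are longer than the SEM NT lists, and the part of list length in the comparison was not tested beyond the lists of equal length given at the end. SEM-only regions ranked higher with the NSD2 shRNA. Their median rank was 29.8 and 28.6 in the sh2 libraries and 20.7 and 22.1 in the NT libraries. A region was counted as higher where both sh2 ranks lay above both NT ranks. This held for 485 members, 39.7% (interval 37.0 to 42.5), against 22.8% of all regions open in the SEM lists. The reverse, both sh2 ranks below both NT ranks, held for 212 members, 17.4% (15.3 to 19.6), against 27.2% of all regions. With folds as deposited, not ranked, 13.3% of members were lower, against 14.5% of all regions, so the lower share differed little from the background on that scale, while 48.2% were higher, against 36.0%. For the other 524 members the ranks of sh2 and NT overlapped.

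The median shift of a member (mean sh2 rank minus mean NT rank) was 5.39, while that of all regions was -1.02 and that of regions open in all 12 lists -2.45. Between libraries of 1 shRNA the median difference over the members was -0.13 for sh2 (library 1 minus library 2) and -0.30 for NT. The median absolute difference was 13.9 between the means of sh2 and NT, and 8.47 and 10.4 between single libraries of sh2 and of NT. Means and single libraries are unlike measures, so these sizes are not directly comparable. No test between sh2 and NT was possible with 1 sample each, regions are not replicates, and all intervals cover counting error only. With any SEM library left out of the rule and the ranking, higher members numbered 658 to 909 (46.6% to 52.3%, against 34.0% to 35.4% of all regions) and lower members 371 to 460 (26.3% to 28.5%, against 39.3% to 41.1%). With 1 library against 2 fewer ranks have to be in order, so these counts are larger in both directions by construction. The higher count passed 1.5 times the full one without NT library 1 (909) and without NT library 2 (876), and the lower count did so without each of the 4 (371 and 420 without sh2 library 1 and 2, 460 and 446 without NT library 1 and 2).

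The shift was graded by how far a region was shared with the other lines at the ends of the scale, and flat between them. With a peak in 1 of the 8 other lists, 29.7% of the SEM regions ranked higher with sh2 and 19.9% lower. With 2 to 7 other lists, 26.0% to 29.0% ranked higher and 21.3% to 25.5% lower. With all 8, 18.7% ranked higher and 31.5% lower.

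**Figure D2:**
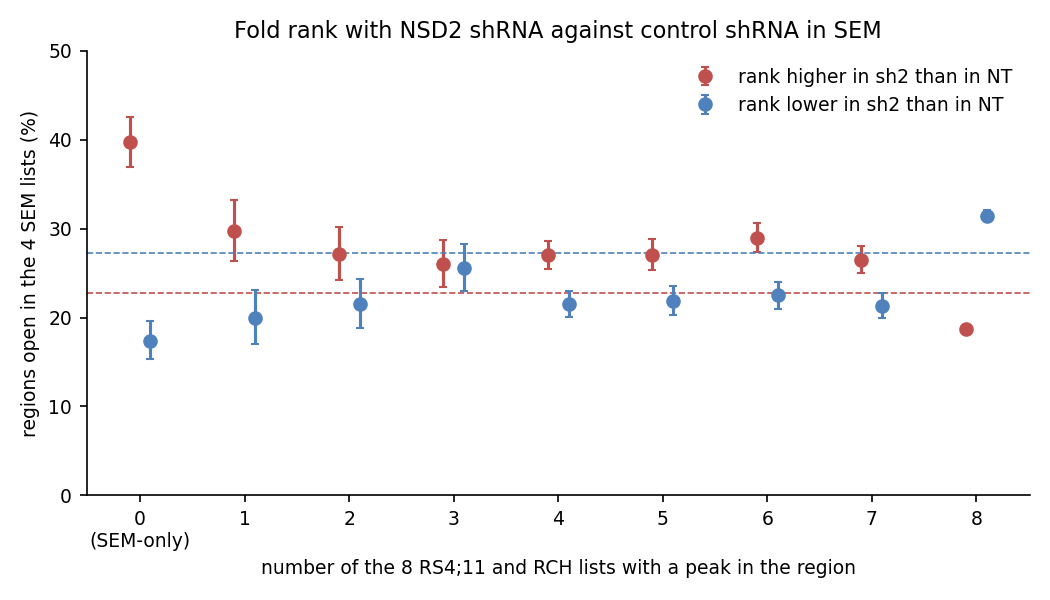
Percent of regions open in the 4 SEM lists (y axis) whose fold rank was higher (red) or lower (blue) in both sh2 than in both NT libraries, by the number of RS4;11 and RCH lists with a peak there (x axis); bars are exact 95% binomial intervals over regions and dashed lines the values over all 36732 regions. SEM-only regions, at 0, have 39.7% higher and 17.4% lower, and regions open in all 8 other lists have 18.7% and 31.5%.

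Members are weaker than the rest, so the same count was made within 5 equal classes of the mean rank. In the lowest class 29.6% of 513 members ranked higher with sh2, against 18.5% of the rest of the regions of that class. In the second class it was 39.7% of 348 members against 21.6%. In the third it was 54.0% of 224 members against 24.9%, with a median shift of 22.8 against -1.38. In the fourth it was 59.6% of 109 members against 23.03%, with a median shift of 23.1 against -2.58. The strongest class held 27 members, of which 33.3% ranked higher, against 23.01% of the rest. Weighted to the members' classes, the rest had 21.0% higher and 25.8% lower regions. The rest includes the regions open in all 12 lists, of which 18.7% ranked higher and 31.5% lower. The classes were not counted without them. The interval of the members' share lay above the value of the rest in the 4 lower classes. In the strongest class it ran from 16.5 to 54.0 and held the value of the rest. These intervals cover counting error only, since the regions share libraries.

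Chromosomes differ in how SEM regions shift as a whole, and members were set against the rest on each. Of the 35511 regions of the rest, 20934 were open in all 12 lists, with a median shift of -2.45. Regions with a peak in 1 to 7 other lists had medians from 0.03 to 2.18, and members were not compared with them alone by chromosome. The median shift of members lay above that of the rest on 22 of 22 chromosomes. It was positive on 20 chromosomes for members and on 9 for the rest. On chromosome 10 it was 15.6 for 55 members and -0.72 for the rest, on chromosome 5 it was 13.9 for 65 members and 0.70 for the rest, and on chromosome 8 it was 13.4 for 74 members and 1.45 for the rest. On chromosome 17 both were negative, with -3.11 for 58 members and -7.91 for the rest, and so on chromosome 22, with -5.88 for 13 members and -9.02 for the rest. On chromosome 19 the median was 0.13 for 44 members and -7.70 for the rest, and as many members ranked higher as lower (12 each).

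Members were also more often wider with sh2. In members the sh2 lists covered a median of 368 and 361 bp and the NT lists 314 and 317 bp. Both sh2 lists covered more than both NT lists in 485 members (39.7%), against 25.7% of all regions open in the SEM lists, and less in 159 (13.02%), against 17.6%. In regions open in all 12 lists the medians were 632 and 626 bp in sh2 and 624 and 617 bp in NT. Width and fold come from the same peaks and are not separate evidence.

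The 5 members with the highest shift had folds above 12 in both sh2 libraries and below 7 in both NT libraries. At chr8:122252530-122253110 the folds were 15.9 and 15.4 in sh2 and 4.55 and 6.60 in NT. At chr3:106147439-106147822 they were 13.2 and 12.9 in sh2 and 3.66 and 6.02 in NT. At chr6:68339953-68340424 they were 15.2 and 13.4 in sh2 and 6.38 and 4.29 in NT. At these 3 places the sh2 ranks were 87.6 to 96.5 and the NT ranks 1.79 to 37.1. On chromosome 5, the member at chr5:110452259-110452763 had 12.9 and 16.5 in sh2 and 5.03 and 5.85 in NT, and that at chr5:86275527-86275940 had 12.3 and 14.01 in sh2 and 5.30 and 5.15 in NT.

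The 5 members with the lowest shift had shifts of -60.8 to -44.7, against 70.9 to 73.5 for the highest. At chr17:64242489-64242878 the folds were 5.46 and 4.21 in sh2 and 8.71 and 10.5 in NT. At chr3:192958672-192959433 they were 4.93 and 5.31 in sh2 and 9.72 and 8.47 in NT. At chr5:20601677-20602264 they were 5.05 and 5.56 in sh2 and 7.53 and 11.6 in NT. Both sets of 5 were picked among members whose sh2 and NT ranks did not overlap. The last of the lowest 5 were chr13:39260415-39261445, with 6.33 and 5.95 in sh2 and 10.98 and 9.45 in NT, and chr18:19830430-19830979, with 6.08 and 7.10 in sh2 and 9.69 and 10.3 in NT.

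**Figure D3:**
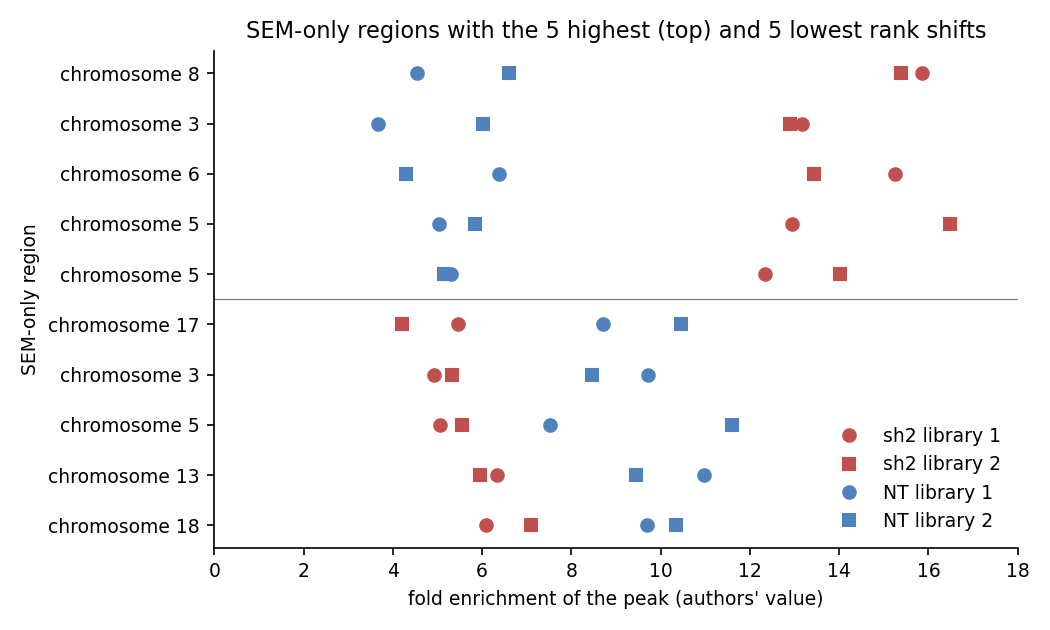
Fold enrichment (the authors' value, x axis) in each SEM library of the SEM-only regions with the 5 highest and the 5 lowest shifts of fold rank, 1 row per region named by its chromosome; sh2 libraries are red and NT libraries blue. In the upper 5 rows all sh2 values lie above all NT values, from 12.3 to 16.5 against 3.66 to 6.60, and in the lower 5 rows the order is turned.

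Line-only regions of the other lines were ranked in the same way in their own libraries. Of the RS4;11-only regions 18.1% ranked higher and 27.0% lower with sh2 in RS4;11, against 25.6% and 19.8% of all regions open in its 4 lists. Of the RCH-only regions 22.5% ranked higher and 26.9% lower in RCH, against 28.4% and 25.4%. The median shift was -0.97 in RS4;11-only and -1.15 in RCH-only regions, against 5.39 in SEM-only regions. In RS4;11 the line-only regions had fewer higher and more lower regions than the background, outside the intervals of 16.6 to 19.6 and 25.2 to 28.7. In RCH they had fewer higher regions (interval 20.1 to 25.04), while the interval of the lower share, 24.3 to 29.5, held the background. These intervals cover counting error over regions of the same libraries only. The difference between lines was not tested. The lists were longer with sh2 in SEM (62120 and 60148 peaks, against 52301 and 53475 with NT) and shorter with sh2 in RS4;11 (59502 and 61253, against 81527 and 71463) and in RCH (43043 and 40506, against 54740 and 55364), and the part of this in the shifts was not tested.

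Position was not used by the rule. The nearest region open in all 12 lists lay at a median of 40.7 kb from a member (interval of the median 36.2 to 46.1), at 33.6 kb from RS4;11-only regions (31.5 to 36.6) and at 40.7 kb from RCH-only regions (37.3 to 44.6). More than 100 kb away were 332 members, 27.2% (24.7 to 29.8), against 21.7% (20.1 to 23.3) of RS4;11-only and 25.7% (23.2 to 28.4) of RCH-only regions. Within 10 kb were 255 members, 20.9%, against 22.4% of RS4;11-only and 17.98% of RCH-only regions. The medians of SEM-only and RCH-only regions were alike, and the interval for RS4;11-only regions lay lower and overlapped that for SEM-only regions. The distance for SEM-only regions was 63.1 kb with lists of equal length and 126 kb with peaks above the pooled median fold, settings not applied to the other classes, whose lists differ in length. SEM regions with a peak in RS4;11 but not in RCH lay at a median of 33.3 kb, and those with a peak in RCH but not in RS4;11 at 45.9 kb.

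**Figure D4:**
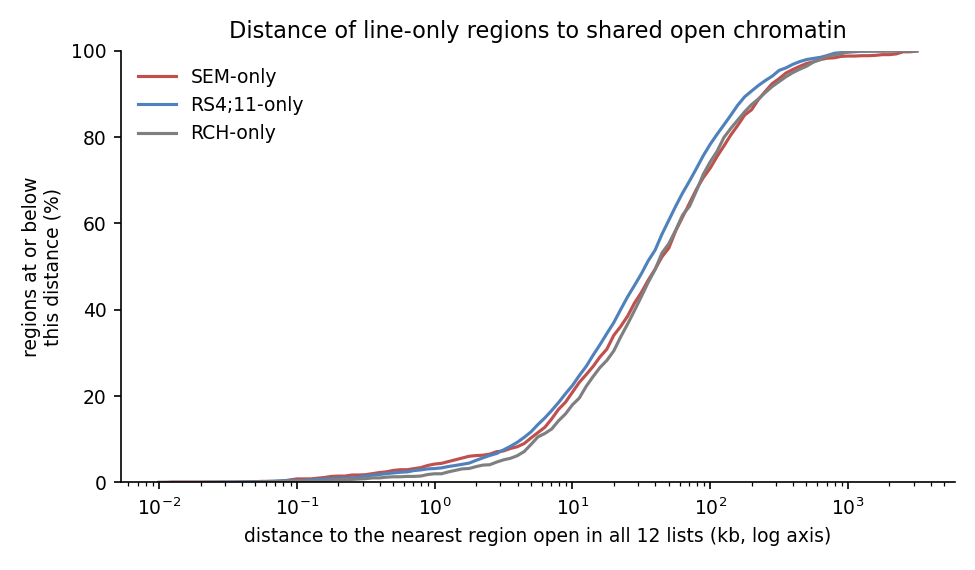
Share of SEM-only, RS4;11-only and RCH-only regions (y axis, percent) that lie at or below a given distance (x axis, kb on a log scale) from the nearest region open in all 12 lists. The curves for SEM-only and RCH-only regions cross 50% near 40.7 kb and that for RS4;11-only regions near 33.6 kb.

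Members near shared regions were weaker. The 255 within 10 kb had a median mean percentile of 31.1 and a median width of 425 bp, the 634 between 10 and 100 kb had 45.8 and 475.5 bp, and the 332 beyond 100 kb had 49.9 and 480 bp. The share that ranked higher with sh2 was 38.8%, 41.0% and 38.0% in these classes, against 23.4%, 27.7% and 30.8% of SEM regions at the same distances that had a peak in 1 to 7 other lists. The excess of higher members was thus smallest beyond 100 kb.

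Most members lay within reach of some open chromatin of the other lines. The nearest peak of any RS4;11 or RCH list was at a median of 7.17 kb, within 1 kb for 179 members (14.7%) and beyond 100 kb for 8. The nearest other SEM region was at a median of 6.48 kb, and the nearest other SEM-only region at 598 kb. The 5 members farthest from the other lines were chr9:41954431-41955050 (296 kb), chr15:30488225-30488565 (269.9 kb), chr17:13249520-13249936 and its neighbour chr17:13250364-13251091 (128 and 127 kb) and chr22:32540593-32541212 (121 kb). The pair on chromosome 17 had folds of 8.02 and 8.33, and of 6.34 and 7.76, in sh2, against 4.17 and 4.42, and 4.55 and 4.83, in NT. The member on chromosome 15 went the other way, with 6.48 and 7.01 in sh2 and 9.35 and 10.9 in NT.

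By chromosome, members made up 1.95 (chromosome 22) to 4.25 (chromosome 6) of every 100 regions open in the 4 SEM lists, and the interval held the overall 3.32 on 17 of 22 chromosomes. Chromosome 6 had 106 members and 4.25 per 100 (3.50 to 5.12), and chromosome 3 had 105 members and 4.19 (3.44 to 5.05). Chromosome 11 had 43 members and 2.31 per 100 (1.68 to 3.10), chromosome 2 had 83 and 2.62 (2.10 to 3.24), and chromosome 22 had 13 and 1.95 (1.04 to 3.30). Of the 5 exceptions 2 lay above the overall value and 3 below it. Chromosome 6 held 8.68% of SEM-only, 6.75% of RS4;11-only and 3.40% of RCH-only regions. Chromosome 19 held 3.60% of SEM-only, 0.392% of RS4;11-only and 5.50% of RCH-only regions, and chromosome 13 held 2.21%, 6.91% and 2.97% of them. Set against the regions open in the 4 lists of the same line, chromosome 19 had 2.95 SEM-only regions per 100 (2.15 to 3.94), 0.829 RS4;11-only regions (0.398 to 1.52) and 5.07 RCH-only regions (3.92 to 6.44). Chromosome 6 had 4.25 SEM-only, 5.62 RS4;11-only (4.83 to 6.49) and 2.43 RCH-only regions per 100 (1.73 to 3.30).

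**Figure D5:**
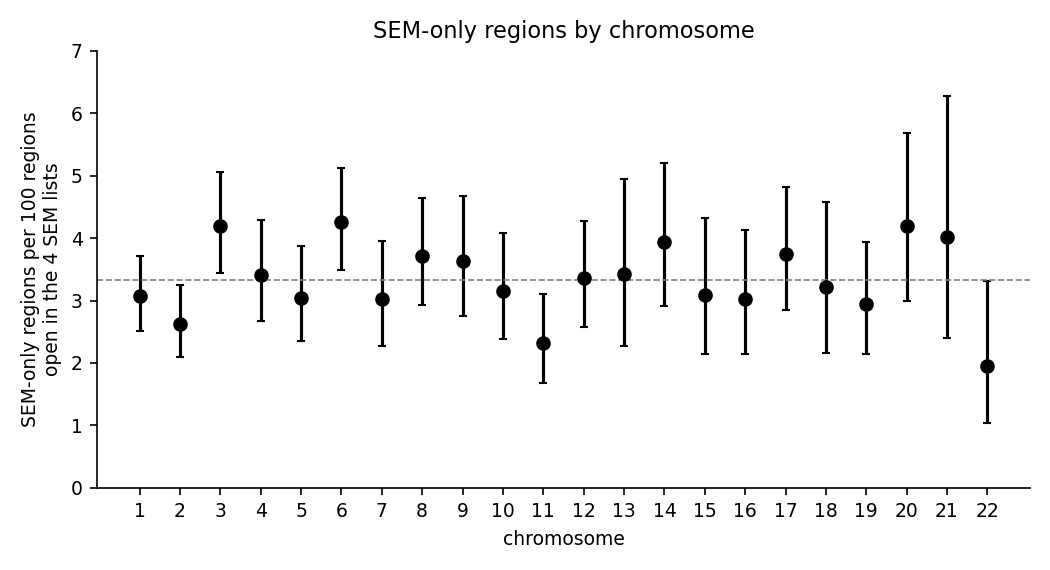
SEM-only regions per 100 regions open in the 4 SEM lists (y axis) on each autosome (x axis), with exact 95% binomial intervals; the dashed line is the value of 3.32 over all autosomes. Chromosomes 6 and 3 lie above the line and chromosomes 2, 11 and 22 below it, each with an interval that excludes it.

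In bins of 10 Mb with at least 50 regions open in the SEM lists, the bin from 20 to 30 Mb of chromosome 9 had the highest share, with 15 members (14.6 per 100, 8.39 to 22.9). It was picked as the highest of 274 bins. RS4;11 had no peak in any list from 19856956 to 25134359 on this chromosome, over 5.28 Mb, while RCH had 107 regions and SEM 143 there. This stretch held 13 members between 20441731 and 23259035 and 56 further regions open in the 4 SEM lists that RCH shared. Here SEM is set against RCH alone, and closed chromatin and absent DNA in RS4;11 cannot be told apart in peak lists. The strongest member in it, at chr9:22446519-22447686, had folds of 10.99 and 11.3 in sh2 and 10.4 and 10.9 in NT. The others had mean percentiles from 1.55 to 71.0. Outside the stretch chromosome 9 had 44 members and 2.93 per 100 (2.13 to 3.91), and of the 1208 members outside it 40.0% ranked higher with sh2 and 17.4% lower.

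Members in other long gaps were few. On chromosome 20, RS4;11 had no peak from 26213502 to 29537156 and RCH none from 26190537 to 29611378. SEM had 3 members there, at chr20:29518650-29525467, in the last part of the gap. SEM itself had few peaks there, with 5 regions in any list in the RS4;11 gap and 7 in the RCH gap. Why few peaks were called in this place was not tested. The member at chr9:41954431-41955050 lay in gaps of 1.46 Mb in RS4;11 and 2.34 Mb in RCH, and was the only SEM region in either gap. Its folds were 7.85 and 11.2 in sh2 and 9.35 and 12.1 in NT.

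Most members stood alone. When members within 50 kb of each other were joined, 1081 were single, 55 pairs were found, and 9 runs of at least 3 held 30 members, 2.46% (1.66 to 3.49). With lists of equal length this share was 0.556%, a setting not applied to the other lines. This share was 6.63% (5.70 to 7.67) for RS4;11-only and 5.50% (4.25 to 6.98) for RCH-only regions, and the largest runs had 5, 6 and 7 regions in the 3 classes. The classes differ in size, with 1221 SEM-only, 2548 RS4;11-only and 1146 RCH-only regions. The largest SEM-only run spanned 32.8 kb at chr6:157128247-157161091, with 5 weak members of mean percentiles 5.48 to 29.3. Its first member, at chr6:157128247-157128576, had folds of 4.92 and 4.33 in sh2 and 6.16 and 5.00 in NT, and its widest, at chr6:157149125-157149871, had 5.02 and 4.87 in sh2 and 2.97 and 2.82 in NT. Of the 5, 2 ranked higher and 2 lower with sh2, against 39.7% and 17.4% of all members. So few and weak regions do not show whether the run shifted as a unit.

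The second run, with 4 members over 55.1 kb at chr9:21778232-21833361, lay in the stretch without RS4;11 peaks. At chr9:21832066-21832501 the folds were 7.94 and 8.33 in sh2 and 4.94 and 4.84 in NT, while at chr9:21813885-21814136 they were 4.04 and 4.69 in sh2 and 5.29 and 6.10 in NT. Of the 4 members, 1 ranked higher and 1 lower with sh2. The ranks of sh2 and NT overlapped at chr9:21778232-21778954 (shift 9.49) and at chr9:21833059-21833361 (shift 6.49). The median shift of the run was 7.99. The strongest runs were at chr4:85419218-85452031, with 3 members of mean percentiles 12.2 to 85.8, of which 2 ranked lower and 0 higher, and at chr14:37616662-37667667, with 3 members of 26.8 to 88.7. No region open in all 12 lists lay inside any of the 9 runs, but regions with an RS4;11 or RCH peak did. The runs on chromosomes 6, 9 and 4 held 3 such regions each, and those on chromosomes 15 and 17 held 2 each. Those on chromosomes 5 and 14 held 1 each, and those on chromosomes 1 and 20 held 0.

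Which regions are members depends on list length. With every list reduced to its 40506 peaks of highest fold, the rule gave 1079 regions, of which 517 overlapped members as reported, 47.9% of the 1079 and 42.3% of the 1221. In those 1079 regions 39.6% ranked higher with sh2 and 14.7% lower, against 22.9% and 28.1% of all regions open in the 4 cut SEM lists.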

How the data were processed

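Bowtie2, MACS2 and the build hg19 are named in the submitters' processing notes. The sources used here give no versions, settings, duplicate removal, transposase shift or read totals, so depth is unknown. The authors deposited 2 peak lists per sample, taken as called on single libraries, with a fold enrichment per peak, a ratio read as such from its values. The libraries of a sample are numbered by the peak names. Peaks on chromosomes 1 to 22 were joined at an overlap of 1 bp, and the fold of a list in a region is that of its highest peak. Members, lists and tests were chosen with earlier results of these data known. No gene was named. Regions named were the 10 strongest, 5 widest, 5 highest and 5 lowest in rank shift among those whose sh2 and NT ranks did not overlap, 5 most isolated, the largest runs and those just outside the rule. The 3 weakest, the members of the chromosome 9 stretch, the bins and the classes of rank were added after the data were seen. Intervals are exact binomial (Clopper-Pearson) at 95%, those of medians binomial by order, and regions share libraries. No test was possible with 1 sample per line and shRNA. The planned motif shares and gene lists were not analysed here, since no hg19 sequence or annotation was used. The steps were tested on simulated lists. The work was done in Python 3.11.15 with scipy 1.17.1, pandas 2.3.3, numpy 2.4.6 and matplotlib 3.10.9.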

Additional observations from a re-analysis of the deposited data

How the results depend on the processing

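The number of SEM-only regions was within 1.5 times of 1221 in 17 of 22 settings, 1262 to 1747 with 1 library left out. It was 573 with peaks above the pooled median fold (6.37), of which 184 overlapped reported members, 2540 with 3 SEM lists, 1928 with 1 other list allowed, 2828 from NT lists alone and 7094 from sh2 lists alone. Left-out libraries gave 658 to 909 members of higher and 371 to 460 of lower rank. With unranked folds 48.2% of members were higher, against 36.0% of all, and 13.3% lower, against 14.5%, so that the lower shares were close. The median distance was 36.5 to 39.2 kb with 1 SEM library left out, 63.1 kb with equal lists, 126 kb with the stricter fold and 7.17 kb to any peak of another line. Runs held 1.64% at 20 kb, 4.59% at 100 kb and 0.556% with equal lists. The mean percentile was 27.5 when ranked among regions open in the SEM lists, and the width 515 bp with equal lists. The causes were not tested. No paired analysis was possible because no result comes from a test, with 1 SEM sample for each shRNA, and the library numbers, taken from the peak names, are not tied to each other by any label. Depth per library is unknown, so what it limits could not be measured.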
